A study of Mus musculus with 8 samples.

Results

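The comparison set side by side mouse fibroblast cultures undergoing cardiac reprogramming with either of 2 added compounds, an antagonist of the prostaglandin E2 (PGE2) receptor EP4 or an inhibitor of transforming growth factor beta (TGFb) signalling. It used 2 of the 8 arrays of the series, the EP4 antagonist array and the TGFb inhibitor array of TTF set 2, chosen by their labels, and all 22206 transcript clusters of the array (probe sets for a gene's transcripts, named TC or TS). The cells were fibroblasts from the tail tip of postnatal mice (TTFs). All arrays came from cells that received the cardiac factors Gata4, Hand2, Mef2c and Tbx5 (together GHMT) by retrovirus. TTF set 2 held 4 arrays: GHMT, GHMT with the EP4 antagonist, GHMT with the TGFb inhibitor and GHMT with a Wnt inhibitor. GHMT and the EP4 antagonist had 1 more array each in set 1, the TGFb inhibitor had none. The compound was added together with the viruses, and the cells were then kept in medium with fetal bovine serum. Compound names, doses, mouse strain and age, time of harvest and whether a culture pooled animals are not stated in the labels, and untransduced cells were not analysed here. The labels also do not say whether the sets are separate cultures or animals. With 1 array per treatment no test was possible between these 2 arrays alone.

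TGFb binds a pair of receptor kinases that phosphorylate Smad2 and Smad3, which switch on matrix, contractile and feedback genes and hold fibroblasts in an activated state. PGE2, made from arachidonic acid by the cyclooxygenases, acts through 4 receptors, of which EP4 couples to adenylate cyclase and raises cAMP, a second messenger that activates protein kinase A and the factor CREB. Inhibitors of either route have been used to help fibroblasts take on a cardiomyocyte-like state. The question addressed is where the transcriptomes under the 2 treatments differ.

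Values are log2 expression on 1 array, and a difference is the EP4 antagonist array minus the TGFb inhibitor array, so a positive value means higher with the EP4 antagonist. A cluster was counted when the difference was at least 1 on this scale (2-fold). A level at or under the 95th percentile of an array's background probe sets (5.82 on the EP4 antagonist array, 5.96 on the TGFb inhibitor array) is called background. Where the lower array lay there, the fold is given as a bound against its background level ("at least"). Of the 22206 clusters, 44.5% lay above background on the EP4 antagonist array and 43.7% on the TGFb inhibitor array. The labelled cell type was checked against its markers: all 8 measured fibroblast markers lay above background in each of the 4 arrays of set 2. The 4 measured macrophage and leukocyte, 4 endothelial and 4 keratinocyte markers lay at background in all 4 arrays (3.04 to 4.54, 3.13 to 4.30 and 2.95 to 4.02 on the TGFb inhibitor array). Of 8 cardiomyocyte markers, 6 lay above background in GHMT and 7 with each treatment. All 5 smooth muscle and myofibroblast markers did, except 4 with the Wnt inhibitor. Of 5 skeletal muscle markers 2 did in each array, and of 3 adipocyte markers 1 did, but 0 with the EP4 antagonist. In these bulk samples, fewer cells of a type and less RNA per cell cannot be told apart.

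The EP4 antagonist array differed from the TGFb inhibitor array by at least 2-fold in 1403 transcript clusters, 6.32% of those measured. Of these, 623 (2.81%) were higher with the EP4 antagonist and 780 (3.51%) higher with the TGFb inhibitor. Both arrays lay above background for 852 of the 1403, and both lay at background for 288, whose difference carries little weight. No replicate of the TGFb inhibitor exists to give the spread. As a reference, the difference between the EP4 antagonist and GHMT was taken in both TTF sets, and the gap between the sets was divided by the square root of 2, which has the spread of a difference between 2 arrays. This reference reached 2-fold in 329 clusters (1.48%; 0.788% in 1 direction and 0.694% in the other) and also holds any true difference in response between the sets. Its SD over all clusters was 0.37, against 0.58 for the comparison itself. For a single gene the reference is 1 observed gap, so it cannot tell whether that gene's difference exceeds its spread.

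**Figure D1:**
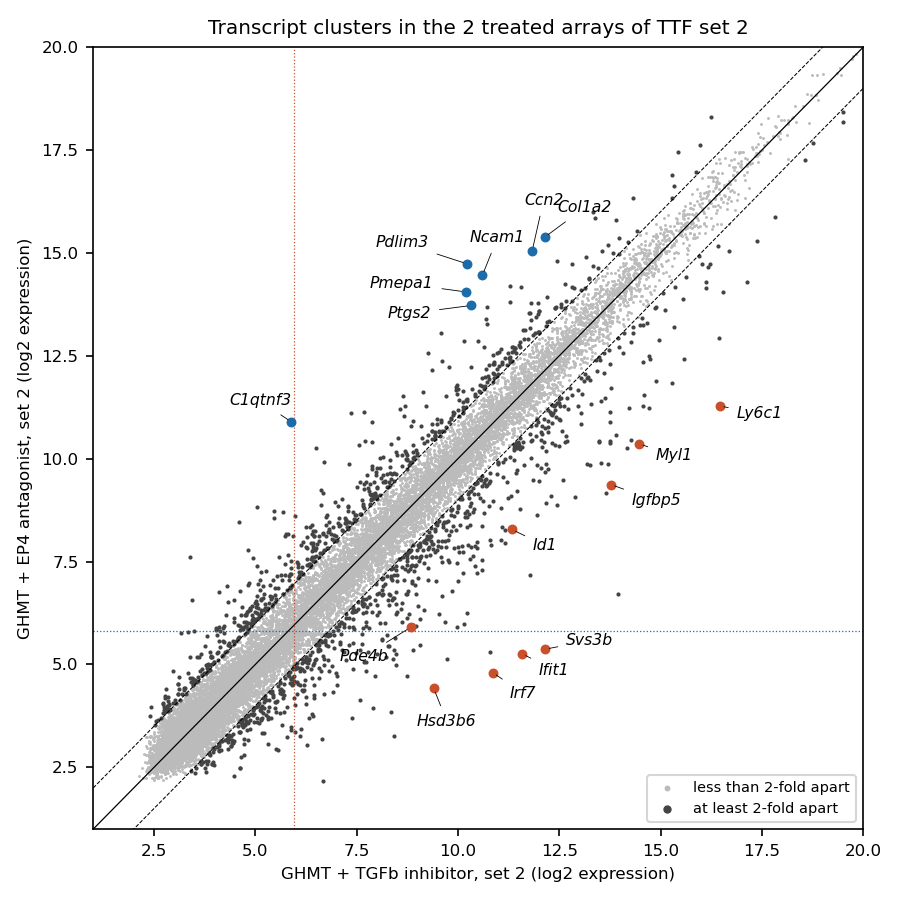
Log2 expression of all 22206 transcript clusters, TGFb inhibitor array on the x axis and EP4 antagonist array on the y axis, both of set 2. Dashed lines mark 2-fold, dotted lines the background level of each array, and coloured points are genes named in the text; the 1403 dark and coloured points beyond the dashed lines split into 623 above and 780 below the diagonal.

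The GHMT array of the same set shows which treated array stood away from the cells with the factors alone. Both differences share that GHMT array. Of the 1403 clusters, 638 (45.5%) lay at least 2-fold from GHMT on the TGFb inhibitor array only, and 198 (14.1%) on the EP4 antagonist array only. In 51 both arrays lay 2-fold from GHMT in opposite directions, in 31 in the same direction, and in 485 neither did. The TGFb inhibitor array was the highest or lowest of the 4 arrays of set 2 in 1124 of the 1403 (80.1%). The EP4 antagonist array was so in 995 (70.9%), and both can hold for the same cluster. Over all clusters, 5.36% were at least 2-fold from GHMT with the TGFb inhibitor and 2.74% with the EP4 antagonist. Of the 198 clusters of the EP4 antagonist, 113 had the same sign and 16 the same sign and 2-fold size in the EP4 antagonist array of set 1 against its own GHMT array, where 1.6% of all clusters reached 2-fold. Among clusters with a mean above background these were 69 and 12 of 117.

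None of the transcripts of the 4 transduced factors was 2-fold apart. Tbx5 stood at 14.25 with the EP4 antagonist and 14.40 with the TGFb inhibitor, Mef2c at 17.86 and 18.11, and Hand2 at 11.01 and 11.93. The Hand2 difference was -0.92 beside a spread reference of 0.42, and the Mef2c difference of -0.25 was about the size of its reference. Each reference is 1 observed gap, so it cannot show whether either difference exceeds its spread. The Gata4 cluster lay at background in both (4.19 and 4.09), so nothing can be said of this factor. Ptger4, the gene of EP4, was at 7.35 and 7.25.

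Among TGFb feedback genes, Pmepa1 and Skil were at least 2-fold lower on the TGFb inhibitor array and Ldlrad4 lay at background there, while the EP4 antagonist array lay near GHMT. Pmepa1, an inhibitor of Smad activation induced by TGFb, was at 14.07 in GHMT, 14.05 with the EP4 antagonist and 10.19 with the TGFb inhibitor, and the Wnt inhibitor array differed from GHMT by -0.07. The TGFb inhibitor array was thus the low one of the 4, 14.5-fold under the EP4 antagonist array. Skil, a Smad co-repressor that TGFb induces, stood at 11.17, 10.79, 8.83 and 10.79 in the same order (3.89-fold). Ldlrad4, a membrane protein that sequesters Smad2 and Smad3, was at 6.59, 6.78, 4.61 and 7.40, at least 1.76-fold apart. Smad7 lay close to background everywhere in set 2 (6.01 to 6.45). Smad6, an inhibitory Smad of the bone morphogenetic protein (BMP) branch, was in the other direction: background with the EP4 antagonist (5.48), 7.32 with the TGFb inhibitor, 6.62 in GHMT and 7.38 with the Wnt inhibitor. Of the 14 genes on the list of Smads and TGFb feedback, 3 were at least 2-fold higher and 1 lower with the EP4 antagonist, and 6 had a negative difference, with a median of 0.22 against 0.01 over all clusters.

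Of 24 TGFb ligands, latency proteins and receptors, 2 were 2-fold higher and 2 lower, with a median of 0.06. Tgfb1, the main ligand, was at 12.69 with the EP4 antagonist and 11.41 with the TGFb inhibitor, below GHMT (12.97) and the Wnt inhibitor (13.64). Ltbp2, a microfibril protein related to the latent TGFb binding proteins, followed the same order (10.18 and 8.70, with GHMT at 10.28). Tgfbr3, the co-receptor betaglycan, was 8.00-fold higher with the TGFb inhibitor (14.88 against 11.88, with GHMT at 12.19). Inhbb, an activin subunit, was 2.23-fold higher there. The signalling receptors Tgfbr1 and Tgfbr2 differed by -0.32 and -0.68.

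The wider list of TGFb response genes showed the same side. Of 39 measured, 19 were at least 2-fold higher with the EP4 antagonist and 0 lower (median 0.89). Against GHMT of the set, 17 were at least 2-fold lower with the TGFb inhibitor and 0 higher, where 2.52% and 2.84% of all clusters were. With the EP4 antagonist 3 were higher and 3 lower, where 1.29% and 1.45% of all clusters were. Lrrc15, a surface protein of activated fibroblasts, lay at 8.83 with the EP4 antagonist and at background with the TGFb inhibitor (5.03), at least 7.30-fold apart. Ccn2, connective tissue growth factor, was at 13.68 in GHMT, 15.05 with the EP4 antagonist, 11.83 with the TGFb inhibitor and 14.31 with the Wnt inhibitor. Here the 2 treated arrays lay on opposite sides of GHMT, 9.32-fold apart. In set 1 the EP4 antagonist stood only 0.21 above GHMT for this gene. Postn, periostin, was 7.41-fold and Aspn, asporin, 6.87-fold higher with the EP4 antagonist, with that array near GHMT (differences of 0.25 and 0.19). In set 1 the EP4 antagonist array lay below GHMT for both genes (-1.25 and -0.45).

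The Id genes were on the other side. These genes, which encode helix-loop-helix proteins that block differentiation factors and are direct targets of BMP Smads, were all higher with the TGFb inhibitor. Id1 was at 9.27 in GHMT, 8.28 with the EP4 antagonist, 11.33 with the TGFb inhibitor and 11.21 with the Wnt inhibitor. Id2 stood at 8.35, 7.39, 10.43 and 9.65. For Id1 and Id2 the arrays of the TGFb and Wnt inhibitors lay above GHMT and the EP4 antagonist array below it, 8.28-fold and 8.22-fold under the TGFb inhibitor. Id3 followed the same order (6.61, 6.22, 8.48 and 7.75). Id4 was at background with the EP4 antagonist (5.48) and at 9.07 with the TGFb inhibitor, at least 9.50-fold, with the Wnt inhibitor (6.56) near GHMT (6.65). In set 1 the EP4 antagonist array differed from GHMT by -0.51 to 0.11 for these genes. Of the 21 genes of BMP signalling, 0 were 2-fold higher and 7 lower with the EP4 antagonist (median -0.17).

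**Figure D2:**
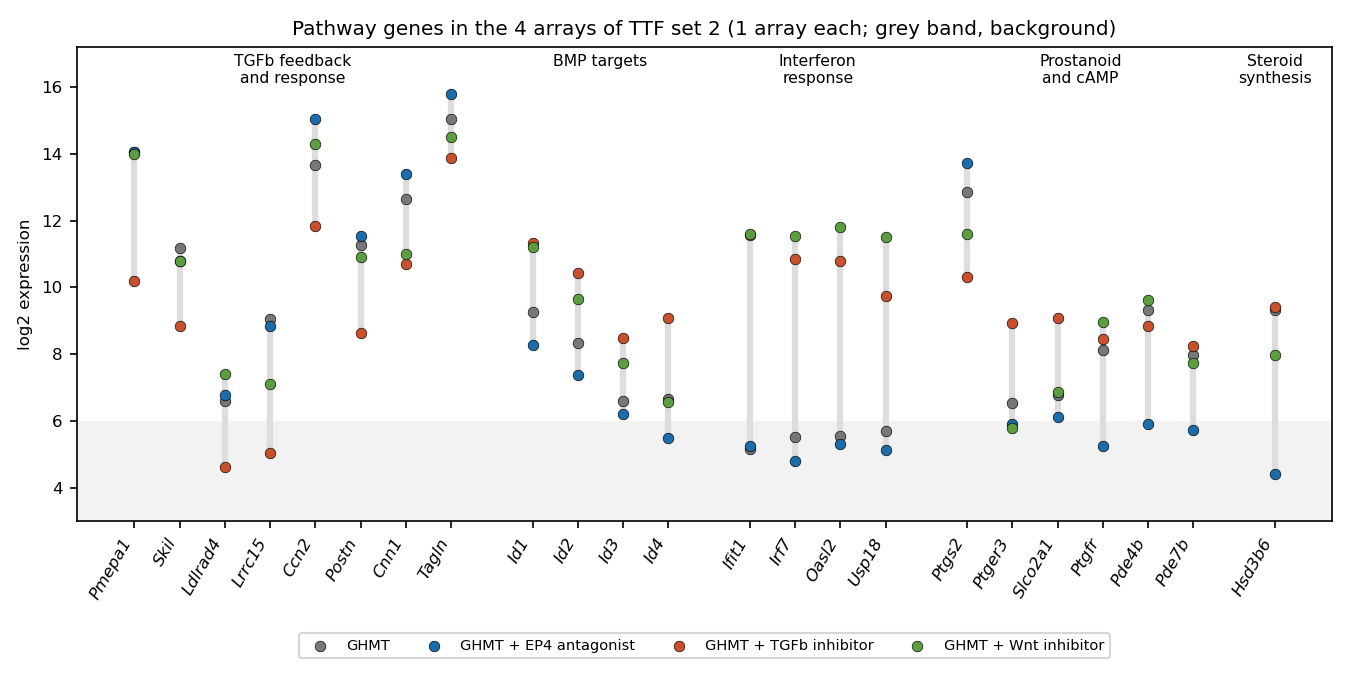
Log2 expression of genes of TGFb, BMP, interferon, prostanoid and cAMP signalling and steroid synthesis in the 4 arrays of set 2, 1 point per array. The TGFb inhibitor array is the low point for Pmepa1, Skil and Postn, it pairs with the Wnt inhibitor array for Ifit1 and Irf7, and the EP4 antagonist array is the low point for Pde4b and Hsd3b6.

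Of 30 collagen genes, 9 were at least 2-fold higher with the EP4 antagonist and 2 lower. Their median of 0.35 became -0.05 when levels were raised to the background level before subtraction, and 10 of the 30 had a negative difference. Col1a2 was at 14.95 in GHMT, 15.38 with the EP4 antagonist, 12.14 with the TGFb inhibitor and 14.30 with the Wnt inhibitor, 9.45-fold between the treated arrays. Col1a1, the partner chain of the same collagen, differed by 1.06 (16.34 and 15.28). Col5a2 was 11.2-fold higher with the EP4 antagonist (13.05 and 9.57). Col10a1, a collagen of hypertrophic cartilage, was above GHMT (8.44) with the EP4 antagonist (11.11) and below it with the TGFb inhibitor (7.35). The EP4 antagonist stood above GHMT in set 1 too, by 1.93. Col4a3, a basement membrane collagen, was 3.97-fold higher with the TGFb inhibitor. Of 35 genes of matrix crosslinking and turnover, 11 were higher and 2 lower (median 0.55). They included Lox, lysyl oxidase (4.17-fold), the protease genes Adamts12 (5.78-fold) and Mmp10 (at least 3.53-fold), and in the other direction Pcolce2, an enhancer of procollagen cleavage (4.79-fold higher with the TGFb inhibitor).

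Matrix glycoproteins and proteoglycans went both ways. Of 48, 15 were at least 2-fold higher and 12 lower with the EP4 antagonist, and the median of 0.33 became -0.12 when levels were raised to the background level before subtraction. Ccn3, a member of the same family as Ccn2, was at 7.90 in GHMT, 9.07 with the EP4 antagonist, 12.88 with the TGFb inhibitor and 8.60 with the Wnt inhibitor. The TGFb inhibitor array was the high one, with a difference of -3.81, the reverse of Ccn2. Abi3bp, a matrix protein, stood at 15.04, 12.92, 16.44 and 16.47, and decorin (Dcn), a proteoglycan that binds collagen and TGFb, at 15.98, 14.28, 17.13 and 16.32. Both were lowest with the EP4 antagonist, which in set 1 also lay below GHMT (-1.77 and -0.72).

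Of 31 genes of smooth muscle and the actin cytoskeleton, 7 were at least 2-fold higher with the EP4 antagonist and 0 lower (median 0.24). Cnn1, calponin, was at 12.66 in GHMT, 13.40 with the EP4 antagonist and 10.70 with the TGFb inhibitor, and the Wnt inhibitor array differed from GHMT by -1.66. Tagln, an actin-binding protein of smooth muscle, was at 15.03, 15.79, 13.89 and 14.49. For both genes the EP4 antagonist array was the highest and the TGFb inhibitor array the lowest of the 4, 6.50-fold and 3.73-fold apart. Acta2, smooth muscle actin, differed by 0.24 near the top of the scale (18.32 to 18.56 in set 2). Cspg4, a proteoglycan of pericytes, was 8.11-fold higher with the EP4 antagonist (10.90 and 7.88, with GHMT at 9.36), and the EP4 antagonist also stood 1.43 above GHMT in set 1. Ramp1, a subunit of receptors for calcitonin peptides, was above GHMT (6.38) in both, at 9.42 and 7.59.

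The group that stood furthest apart was the interferon response. Of 35 genes, 0 were at least 2-fold higher and 29 lower with the EP4 antagonist, with a median of -2.25, and -1.19 with levels raised to background. In all 8 arrays 11 of them lay at background. Ifit1, an antiviral protein that binds foreign RNA, was at 5.15 in GHMT, 5.26 with the EP4 antagonist, 11.58 with the TGFb inhibitor and 11.61 with the Wnt inhibitor. Irf7, a transcription factor that amplifies interferon production, stood at 5.52, 4.80, 10.86 and 11.53. Oasl2 (5.55, 5.30, 10.80 and 11.82) and Usp18 (5.70, 5.14, 9.74 and 11.50), a protease that limits interferon signalling, had the same layout. In each of these the GHMT and EP4 antagonist arrays were at background and both other arrays far above it. The bounds on the fold were at least 54.1 for Ifit1, 32.9 for Irf7, 31.5 for Oasl2 and 15.1 for Usp18. Against GHMT, 27 of the 35 were at least 2-fold higher with the TGFb inhibitor and 25 with the Wnt inhibitor, where 2.53% of all clusters were higher (4.1% either way) with the latter. In set 1, 6 were at least 2-fold lower with the EP4 antagonist than in GHMT, where 0.784% of all clusters were. The 4 measured macrophage and leukocyte markers were at background in all 4 arrays of set 2. Mcpt8, a basophil gene on the leukocyte list, lay above background in each: 12.26, 8.70, 10.37 and 9.69 in the order given for Ifit1. Which cells gave the interferon response was not tested.

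Most members lay on the same side. Promoters are shown for 3 of these genes, picked by hand from those that hold the motif marked below. They are RefSeq windows (GRCm38.p6) from 250 bases before to 50 after the annotated start, written 5′ to 3′ on the gene's strand, and capitals mark matches on either strand to GAAA, any 2 bases and GAAA again, the core of the interferon-stimulated response element.
Ifit1, chr19:34640639-34640938, plus strand: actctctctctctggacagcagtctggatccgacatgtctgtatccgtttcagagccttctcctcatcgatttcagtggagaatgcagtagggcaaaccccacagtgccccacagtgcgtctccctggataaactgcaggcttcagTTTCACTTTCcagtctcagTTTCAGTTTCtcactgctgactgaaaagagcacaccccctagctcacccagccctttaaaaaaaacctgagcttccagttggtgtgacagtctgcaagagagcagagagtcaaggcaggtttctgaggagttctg
Stat2, chr10:128270248-128270547, plus strand: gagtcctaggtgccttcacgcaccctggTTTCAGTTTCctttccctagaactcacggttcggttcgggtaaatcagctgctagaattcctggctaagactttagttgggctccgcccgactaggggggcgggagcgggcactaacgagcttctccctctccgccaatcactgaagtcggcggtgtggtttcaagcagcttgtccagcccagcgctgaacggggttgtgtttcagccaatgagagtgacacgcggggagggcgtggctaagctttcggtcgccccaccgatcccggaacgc
Bst2, chr8:71537423-71537722, minus strand: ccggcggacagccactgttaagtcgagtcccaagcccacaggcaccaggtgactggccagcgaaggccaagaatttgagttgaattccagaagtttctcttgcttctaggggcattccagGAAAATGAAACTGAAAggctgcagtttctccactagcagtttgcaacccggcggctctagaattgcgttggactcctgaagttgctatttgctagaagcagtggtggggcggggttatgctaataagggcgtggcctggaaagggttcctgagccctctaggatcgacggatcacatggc
The Ifit1 window holds 2 matches, which begin at -104 and -85 from the start, the Stat2 window 1, at -222, and the Bst2 window 2 that overlap, at -130 and -124. Stat2, a transcription factor of interferon signalling, was at 8.62 in GHMT and with the EP4 antagonist and at 11.95 with the TGFb inhibitor, 10.1-fold apart. Bst2, tetherin, which holds budding virus at the membrane, was at 7.29 and 10.58, 9.78-fold apart. Of the 27 interferon response genes with a window, 15 (55.6%) held a match, against 1079 of 27025 genes (3.99%) of the whole table. Irf7, Oasl2 and Usp18, named above for their large differences, were not among these 15 genes. A match describes letters and is not evidence of binding. The CAGACA core of the Smad-binding CAGA box was in 4 of 21 TGFb response genes with a window (19.0%, against 23.6% of all genes), and the cAMP response element TGACGTCA in 1 of 26 cAMP and CREB genes (3.85%, against 2.03%).

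Genes of prostanoid signalling differed at several steps. Of 22, 4 were at least 2-fold higher and 6 lower with the EP4 antagonist (median 0.01). Ptgs2, inducible cyclooxygenase, was at 12.86 in GHMT, 13.72 with the EP4 antagonist, 10.32 with the TGFb inhibitor and 11.61 with the Wnt inhibitor. The EP4 antagonist array was the highest and the TGFb inhibitor array the lowest, 10.6-fold apart, while in set 1 the EP4 antagonist and GHMT arrays were nearly equal (9.81 and 9.72). Ptger3, the EP3 receptor that lowers cAMP, was at 5.90 with the EP4 antagonist, just above background, and at 8.92 with the TGFb inhibitor, against 6.54 in GHMT. Slco2a1, the transporter that takes up prostaglandins for breakdown, was at 6.11 and 9.07, with GHMT at 6.78. For these the TGFb inhibitor array was the one away from GHMT. Ptgfr, the receptor of prostaglandin F2alpha, was instead set apart by the EP4 antagonist: 8.12 in GHMT, 5.26 (background) with the EP4 antagonist, 8.47 with the TGFb inhibitor and 8.95 with the Wnt inhibitor, at least 6.27-fold. In set 1 its GHMT (5.04) and EP4 antagonist (4.62) arrays both lay at background, so that set gives no comparison.

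The layout of Ptgfr in set 2 was also found for genes of cAMP breakdown. Pde4b, a phosphodiesterase that degrades cAMP and is itself induced by it, was at 9.33 in GHMT, 5.90 with the EP4 antagonist, 8.83 with the TGFb inhibitor and 9.63 with the Wnt inhibitor. The EP4 antagonist array was low alone, 7.62-fold under the TGFb inhibitor array, and in set 1 it was at background with GHMT at 8.56. Pde7b, another cAMP phosphodiesterase, stood at 7.99, 5.72 (background), 8.24 and 7.73, at least 5.34-fold apart, but in set 1 the difference from GHMT was -0.39. Nr4a3, an immediate early nuclear receptor, was 4.66-fold lower with the EP4 antagonist (7.54 and 9.76, with GHMT at 8.85). For Nr4a3 both arrays lay at background in set 1 (GHMT 5.48, EP4 antagonist 5.73). Adcy7, an adenylate cyclase, was 3.51-fold higher with the EP4 antagonist (7.98 and 6.17, with GHMT at 7.83), and here the TGFb inhibitor array was the one away from GHMT. Of 33 genes of phosphodiesterases and CREB targets, 2 were 2-fold higher and 7 lower (median -0.32). Against GHMT, 9 were lower with the EP4 antagonist and 4 with the TGFb inhibitor, where 1.45% and 2.52% of all clusters were. In set 1 the EP4 antagonist gave 1 higher and 1 lower (median -0.04), where 0.815% and 0.784% of all clusters were.

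Hsd3b6, an enzyme of steroid hormone synthesis, had the largest difference set by the EP4 antagonist array among the named genes. It was at 9.31 in GHMT, 4.42 (background) with the EP4 antagonist, 9.40 with the TGFb inhibitor and 7.98 with the Wnt inhibitor, at least 11.9-fold apart. In set 1 both GHMT (5.17) and the EP4 antagonist (4.45) lay at background, so that set gives no comparison. Sfrp1, a secreted Wnt antagonist (11.54 and 14.59, with GHMT at 13.79), Alpl, alkaline phosphatase (6.35 and 8.59, with GHMT at 8.75), and Chl1, a neural adhesion protein (6.01 and 8.21, with GHMT at 8.13), were also low with the EP4 antagonist alone. In set 1 the EP4 antagonist differed from GHMT by -0.37 for Sfrp1 and by 0.61, the opposite sign, for Alpl, while Chl1 lay next to background in GHMT (5.74) and at background with the EP4 antagonist (4.79).

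Genes of the cardiac sarcomere did not lean to either treatment as a group. Of 39 measured, 6 were at least 2-fold higher and 4 lower with the EP4 antagonist (median 0.09). Against GHMT, 10 were at least 2-fold higher and 0 lower with the EP4 antagonist, and 12 higher and 2 lower with the TGFb inhibitor. In set 1, 17 were higher and 1 lower with the EP4 antagonist than in GHMT, where 0.815% and 0.784% of all clusters were. The Wnt inhibitor gave 11 higher and 2 lower, where 1.57% of all clusters were lower. Myh6, the alpha-myosin heavy chain, was at background in GHMT (4.19) and at 7.25, 6.88 and 6.84 with the EP4 antagonist, the TGFb inhibitor and the Wnt inhibitor, so that the treated arrays differed by 0.37, less than the spread reference of 0.98. Tnnt2, cardiac troponin T (17.50 and 17.51), and Nppa, the atrial natriuretic peptide (16.77 and 17.09, with GHMT at 15.40), were close as well.

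Single members of the contractile apparatus separated the treatments. Myl1, a fast skeletal myosin light chain, was at 8.33 in GHMT, 10.36 with the EP4 antagonist, 14.47 with the TGFb inhibitor and 10.89 with the Wnt inhibitor. Myl7, the atrial regulatory light chain, was at 9.60, 11.11, 13.03 and 12.26. All treated arrays were above GHMT for both genes, and the TGFb inhibitor array was the highest, 17.3-fold and 3.78-fold above the EP4 antagonist array. Myl4, the atrial essential light chain, had the reverse order (13.64, 14.80, 12.44 and 13.62), with the TGFb inhibitor array below GHMT and 5.13-fold under the EP4 antagonist array. Actc1, cardiac actin, was at 11.64, 14.39, 13.24 and 14.66, 2.22-fold higher with the EP4 antagonist than with the TGFb inhibitor. Acta1, skeletal actin, was at 11.66 with the EP4 antagonist and at 9.91 to 9.96 on the other 3 arrays, but in set 1 the EP4 antagonist differed from GHMT by -0.32. Tnni1, slow skeletal troponin I, was 2.79-fold higher with the EP4 antagonist and stood 1.70 above GHMT in set 2, while in set 1 the GHMT array was at background (4.99) and the EP4 antagonist array at 6.58. Tnnt3, fast skeletal troponin T, was 4.44-fold higher with the TGFb inhibitor (13.62 and 11.47). Myh8, a perinatal skeletal myosin, was at background in GHMT (4.54) and above it in both (6.67 and 7.35).

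**Figure D3:**
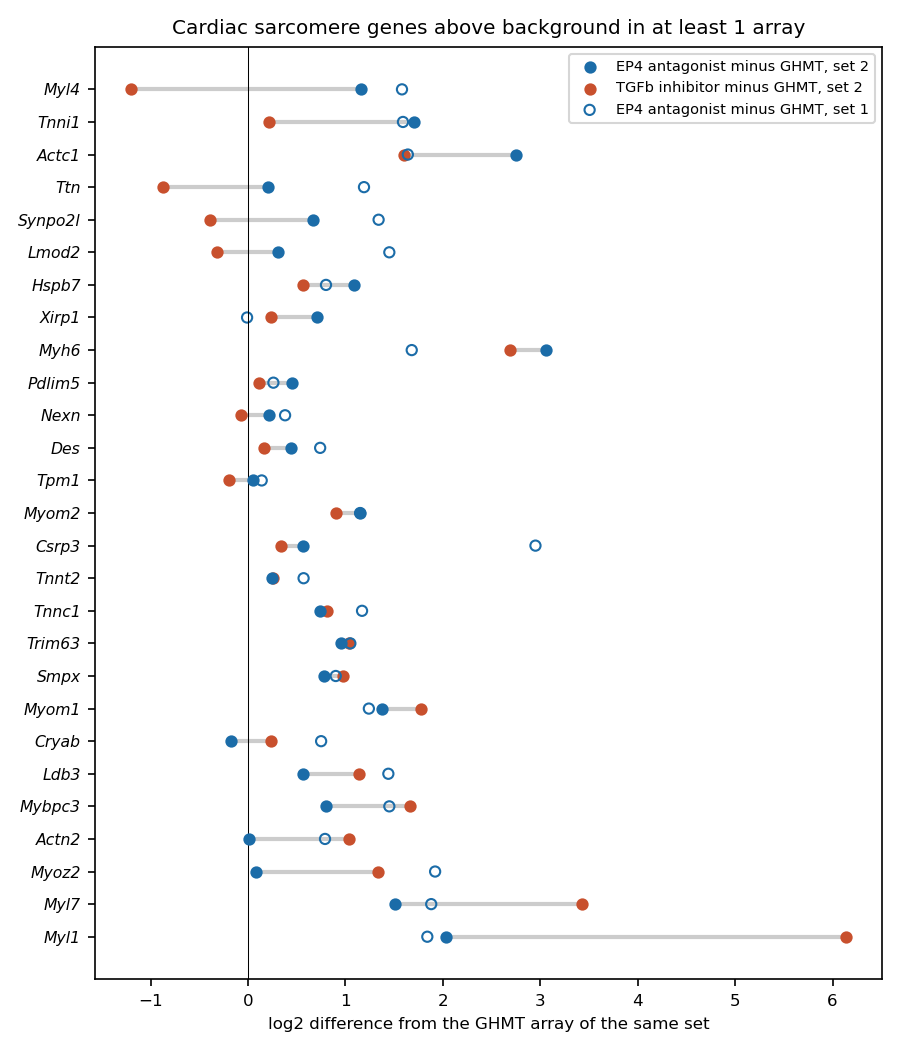
Log2 difference from the GHMT array of the same set for the 27 cardiac sarcomere genes above background in at least 1 of the 8 arrays; filled points are the EP4 antagonist (blue) and TGFb inhibitor (orange) of set 2, open points the EP4 antagonist of set 1. Genes are ordered by the gap between the filled points, from Myl4 (2.36 higher with the EP4 antagonist) to Myl1 (-4.11); 26, 21 and 26 of the genes lie to the right of 0 for the 3 differences in that order.

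Promoters are shown for Actc1 and Myl7, picked by hand from the sarcomere genes that hold the box marked below. Both were above GHMT with either treatment, yet in opposite order. Capitals mark the CArG box, the site of serum response factor, in the same kind of RefSeq window.
Actc1, chr2:114052826-114053125, minus strand: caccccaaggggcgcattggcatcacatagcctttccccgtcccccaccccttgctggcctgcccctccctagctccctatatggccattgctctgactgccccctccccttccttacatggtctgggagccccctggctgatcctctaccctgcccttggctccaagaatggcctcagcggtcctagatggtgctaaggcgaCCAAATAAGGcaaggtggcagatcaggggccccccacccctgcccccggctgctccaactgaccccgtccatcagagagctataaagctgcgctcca
Myl7, chr11:5898733-5899032, minus strand: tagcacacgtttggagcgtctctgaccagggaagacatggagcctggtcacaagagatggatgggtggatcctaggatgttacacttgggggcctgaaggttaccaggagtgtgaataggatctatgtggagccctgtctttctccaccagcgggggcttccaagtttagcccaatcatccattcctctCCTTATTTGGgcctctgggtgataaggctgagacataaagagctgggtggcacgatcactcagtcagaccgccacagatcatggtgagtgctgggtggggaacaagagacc
The box begins at -47 in Actc1 and at -61 in Myl7. It was found in 6 of 32 sarcomere genes with a window (18.8%), against 1.81% of all genes. Among smooth muscle and cytoskeleton genes it was found in 6 of 26 (23.1%). Because Actc1 and Myl7 were picked for holding the box, the pair cannot show whether it goes with either order. Myl1 and Myl4, with larger differences between the treatments (-4.11 and 2.36), were not among the 6 sarcomere genes with a match.

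Differences in calcium handling, cardiac regulators and metabolism lay in both directions. Among 30 calcium handling and channel genes, 2 were at least 2-fold higher and 5 lower with the EP4 antagonist (median 0.05). Ryr2, the calcium release channel of the sarcoplasmic reticulum, was at 9.41 in GHMT, 9.93 with the EP4 antagonist, 11.10 with the TGFb inhibitor and 11.41 with the Wnt inhibitor. Cacnb2, a calcium channel subunit, was 2.62-fold lower with the EP4 antagonist. Sln, sarcolipin, which inhibits the calcium pump, was at least 1.58-fold higher with it. Gjc1, a connexin of the conduction system, was 2.57-fold higher. Of 25 cardiac transcription factors, regulators and hormones, 2 were higher and 1 lower (median -0.08). Popdc3, which encodes a cAMP-binding membrane protein, was at 12.04 in GHMT, 12.16 with the EP4 antagonist, 9.35 with the TGFb inhibitor and 11.54 with the Wnt inhibitor. Its relative Popdc2 was above GHMT (9.72) in both, at 10.88 and 11.85. Tbx20, a cardiac T-box factor, was 2.83-fold lower with the EP4 antagonist, and Nppb, the B-type natriuretic peptide, 2.85-fold higher. For Tbx20 the EP4 antagonist differed from GHMT by -0.72 in set 2 and by 0.67, the opposite sign, in set 1. Of 30 metabolic genes, 2 were higher and 4 lower (median -0.03): Mb, myoglobin, was at least 1.20-fold and Pygm, muscle glycogen phosphorylase, at least 1.23-fold higher, and Lpl, lipoprotein lipase, was 9.32-fold and Pdk2, a pyruvate dehydrogenase kinase, 2.36-fold lower.

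Cell cycle genes were lower with the TGFb inhibitor. Of 38, 10 were at least 2-fold higher and 0 lower with the EP4 antagonist, and 34 had a positive difference (median 0.78). Plk1, a kinase that drives mitosis, was at 11.13 in GHMT, 11.28 with the EP4 antagonist, 9.20 with the TGFb inhibitor and 10.19 with the Wnt inhibitor. Aurka, another mitotic kinase (7.67, 8.12, 6.45 and 6.86), Tpx2, its spindle activator (9.51, 9.52, 8.11 and 8.80), and Cdc20, an activator of the anaphase-promoting complex (7.68, 7.77, 6.47 and 6.76), had the same order. The EP4 antagonist array lay at the level of GHMT or above for these and both other arrays below. Against GHMT, 0 of the 38 were at least 2-fold higher on any of these arrays, and 1 was lower with the EP4 antagonist, 19 with the TGFb inhibitor and 7 with the Wnt inhibitor. Of 23 p53 targets and cell cycle inhibitors, 3 were higher and 1 lower (median 0.49), among them Cdkn2a (7.94 and 6.73) and Plk2 (11.38 and 10.13) higher and Cdkn1b, the p27 inhibitor, lower (7.41 and 8.75). Of 18 cholesterol synthesis genes, 17 had a positive difference but only 2 reached 2-fold (median 0.57), Sqle (2.17-fold) and Mvd (2.11-fold).

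Of 17 genes of IGF binding proteins and secreted regulators, 2 were at least 2-fold higher and 10 lower with the EP4 antagonist (median -1.09, and -0.64 with levels raised to background). Stc1, stanniocalcin, was at 9.74 in GHMT, 9.17 with the EP4 antagonist, 13.66 with the TGFb inhibitor and 10.23 with the Wnt inhibitor. Igfbp5, which binds insulin-like growth factors, was at 10.73, 9.37, 13.77 and 12.60, and Igfbp4, a relative, at 12.34, 10.44, 13.76 and 13.98. Stc1 was high with the TGFb inhibitor alone, while the Igfbp genes were low with the EP4 antagonist and high with both inhibitors. In set 1 the EP4 antagonist was below GHMT for both Igfbp genes as well (-1.12 and -1.31). Of 34 fibroblast identity genes, 4 were higher and 12 lower (median -0.47). Ly6c1, a surface antigen of adventitial fibroblasts and of other cell types, was 36.3-fold higher with the TGFb inhibitor (16.46 and 11.28, with GHMT at 11.77), and Vit, vitrin, at least 5.31-fold.

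Of 37 inflammatory genes, 1 was higher and 9 lower (median -0.34). Ccl11, eotaxin, was at background in the other 3 arrays of set 2 and at 8.39 with the TGFb inhibitor (at least 5.93-fold). Ccl2, a chemoattractant of monocytes, was at 13.29 against 11.33, and Vcam1, an adhesion receptor for leukocytes, at 14.56 against 12.34. Il6 was below GHMT (9.27) in both, at 6.96 and 7.97, and its difference of -1.01 was smaller than its spread reference of 1.63. Of 36 genes of receptor tyrosine kinase ligands and receptors, 6 were higher and 9 lower (median -0.09). Flt1, a VEGF receptor, was at 11.01 in GHMT, 12.57 with the EP4 antagonist, 9.25 with the TGFb inhibitor and 11.26 with the Wnt inhibitor, 9.99-fold apart, and the EP4 antagonist stood 1.52 above GHMT in set 1. Vegfd, a ligand of the lymphatic VEGF receptor, had the reverse order (9.85 and 13.25, with GHMT at 10.38). Pdgfc, a ligand of the PDGF receptors, was 5.70-fold higher with the EP4 antagonist, and Kitl, stem cell factor, 6.15-fold lower. Of 32 Wnt targets and antagonists, 1 was higher and 5 lower (median -0.12), with the antagonist Sfrp2 at 10.38 and 13.74 and Nkd2, a Wnt feedback inhibitor, at 7.42 and 8.97. Sfrp2 was lower with the EP4 antagonist than in GHMT in set 1 (-2.11) and higher in set 2 (0.71).

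Other genes with the largest differences came from outside these lists. Pdlim3, a Z-disc and stress fibre protein, was at 14.86 in GHMT, 14.73 with the EP4 antagonist, 10.23 with the TGFb inhibitor and 13.68 with the Wnt inhibitor, 22.6-fold apart. C1qtnf3, a secreted C1q-related protein, was at least 30.4-fold higher with the EP4 antagonist (10.89 and 5.89, with GHMT at 9.25). Ncam1, a cell adhesion molecule, was 14.4-fold, Pappa, a protease of IGF binding proteins, 13.6-fold, and Fam20a, a secretory pathway pseudokinase, 10.9-fold higher. Sema7a, a semaphorin (at least 5.61-fold), Nell2 (at least 6.76-fold) and Edil3, an integrin ligand (at least 3.16-fold), were also higher. For Pdlim3, Ncam1, Pappa and Fam20a the TGFb inhibitor array was the one away from GHMT. In the other direction, Svs3b and Svs3a, neighbouring seminal vesicle secretory genes whose probes may share signal, were at least 80.3-fold and 6.01-fold higher with the TGFb inhibitor. Svs3b stood at 6.67 in GHMT, 5.37 with the EP4 antagonist, 12.15 with the TGFb inhibitor and 10.29 with the Wnt inhibitor. Dio3, which inactivates thyroid hormone, was 16.8-fold and Apol9a 15.7-fold higher with the TGFb inhibitor, and Npy6r (at least 7.61-fold) and Gvin1 (at least 1.79-fold) were higher there too. Apol9a was also high with the Wnt inhibitor (10.15, with GHMT at 5.67). Dio3, Npy6r and Gvin1 lay at background on the Wnt inhibitor array (5.69, 5.78 and 5.41).

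**Figure D4:**
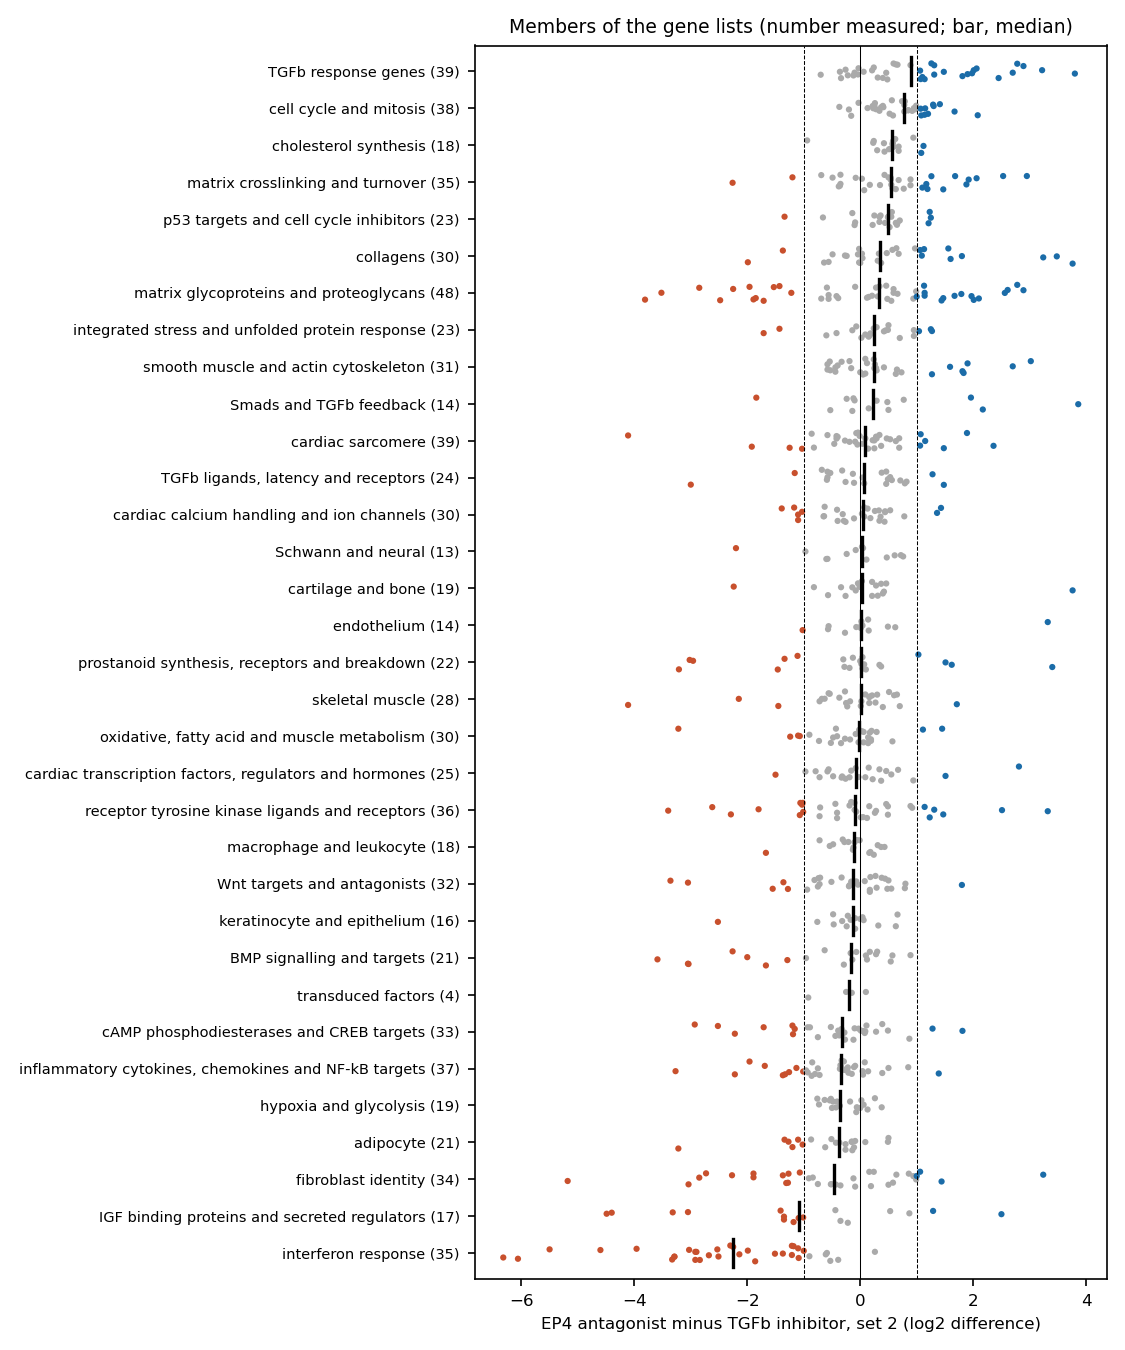
Log2 difference, EP4 antagonist minus TGFb inhibitor in set 2, for each measured gene of the 33 lists, with the number measured in brackets and the median as a bar; blue and orange points are at least 2-fold higher and lower. The medians run from -2.25 for the interferon response to 0.89 for TGFb response genes.

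Some genes far above GHMT with both treatments hardly separated them. Rab3b, a GTPase of secretory vesicles, was at 6.96 in GHMT, 10.91 with the EP4 antagonist, 10.15 with the TGFb inhibitor and 10.31 with the Wnt inhibitor. Stmn2, a microtubule-binding protein of neurons, was at 7.25, 11.24, 10.52 and 11.75. All 3 treated arrays were above GHMT, and the differences of 0.76 and 0.72 between the compared arrays were below the spread references of 1.41 and 2.17, the latter with GHMT of set 1 at background. Mcpt8, a basophil protease, was below GHMT (12.26) in both, at 8.70 and 10.37. Most genes of each remaining list lay at background in all 8 arrays, except for hypoxia and glycolysis and the stress responses. Of 21 adipocyte genes, 0 were higher and 6 lower with the EP4 antagonist (median -0.37), with 9 above background in either array, among them Cebpd (2.53-fold), Pparg (at least 2.04-fold) and Fabp4 (at least 1.90-fold). Of 28 skeletal muscle genes, 1 was higher and 3 lower, of 19 cartilage and bone genes 1 and 1, of 14 endothelial genes 1 and 1, of 18 leukocyte genes 0 and 1, of 16 keratinocyte and epithelial genes 0 and 1 (Krt19, 5.74-fold higher with the TGFb inhibitor), and of 13 Schwann and neural genes 0 and 1. Hypoxia and glycolysis had 0 of 19 either way (median -0.36), and the stress responses 3 higher and 2 lower of 23 (median 0.24), with Phgdh and Shmt2, enzymes of serine metabolism, 2.41-fold and 2.38-fold higher and Atf3 3.27-fold lower.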

How the data were processed

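RNA of 8 cultures was measured on Clariom S Mouse arrays, 1 array each. The deposited values are log2 expression made by the authors with SST-RMA in Affymetrix Expression Console 1.4, per the submitters' design text and processing notes; whether both TTF sets were normalized together, any genome build and any filter are not stated in those notes. Of 28846 rows, 6640 control probe sets were left out and 22206 transcript clusters kept, 19572 of them with a symbol from the platform annotation. For the 55 symbols on more than 1 cluster the one with the highest mean was used. No 2 arrays held identical values.

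Groups and set numbers came from the titles. Differences were taken within set 2 and counted at 2-fold, with no test. The number of arrays limits the precision. Named genes (143) were the 15 largest differences per direction with the higher array above background, up to 4 per list, and a fixed set; predicted genes were skipped. The 33 lists hold 932 entries, 866 matched (812 genes, since lists overlap). The diclofenac arrays of set 1 entered only the choice of clusters, the background checks and the alternatives. Members, lists and rule were chosen with earlier results of these data known. Calculations used Python 3.11.15, pandas 2.3.3, R 4.3.3 and limma 3.58.1, and were tested on simulated data. Alternatives were quantile and cyclic loess normalization, median centring, a filter and a floor at background, cluster means, and a limma fit with the block.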

Additional observations from a re-analysis of the deposited data

Results flagged for a closer look

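Tnnt3, fast skeletal troponin T, had EP4 antagonist effects of opposite direction in the TTF sets: 1.09 above GHMT in set 1 and -1.12 in set 2, 1 array each. The difference between the sets was not tested.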

How the results depend on the processing

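The count of 1403 clusters at least 2-fold apart was 1249 after quantile normalization, 1388 after cyclic loess, 1415 after median centring, 1115 with only clusters above background in at least 1 array and 939 with a floor at the background level. The 2 GHMT and 2 EP4 antagonist arrays share only set numbers, and same-numbered arrays deviated together across clusters (r = 0.724). With the TTF set as a replicate block in a limma fit of all 8 arrays, which averages the EP4 antagonist effect over both sets, 1186 were 2-fold apart (517 higher, 669 lower). That fit has 1 residual degree of freedom and assumes that the lone TGFb inhibitor array varies like the GHMT and EP4 antagonist arrays. It called 41 clusters higher and 106 lower at adjusted p under 0.05 (Benjamini-Hochberg over all clusters). Leaving out GHMT or EP4 antagonist replicate 1 from it gives back the difference of set 2 by construction (1403, 623 and 780). The floor, which shifts the median of all differences to -0.14, lowered the count with the EP4 antagonist array alone away from GHMT from 198 to 115 and with neither away from 485 to 292. It also turned the sign of Wif1 (1.80 to -0.10), which lies at background on the TGFb inhibitor array and next to it on the other, and moved 21 other named genes. The block moved 22 of 143 named genes by more than 0.37 and turned none that were 2-fold apart. Levels near background limit all counts.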

Other observations

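The cluster with the largest difference of all was skipped by the naming rule as a predicted gene and is given here after its values were seen. 2610528A11Rik was at 9.07 in GHMT, 6.70 with the EP4 antagonist, 13.95 with the TGFb inhibitor and 8.86 with the Wnt inhibitor, a difference of -7.25, and at 8.31 to 9.01 in set 1. The following genes were also picked after their values were seen. Among genes known to be interferon-inducible and outside the list, Irgm2 stood at 4.64 in GHMT, 4.99 with the EP4 antagonist, 8.47 with the TGFb inhibitor and 9.78 with the Wnt inhibitor, Slfn5 at 3.86, 3.70, 7.38 and 7.70, and Ifi207 at 9.45, 11.22, 14.70 and 13.66. Ifi207 was above GHMT with the EP4 antagonist as well.

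Several genes were high with the TGFb inhibitor alone. Sema3c, a secreted semaphorin, was at 10.17, 9.87, 13.70 and 9.80 in the same order, and Pla1a, a phospholipase, at 6.39, 6.03, 9.67 and 6.32. Cd55 and Cd55b, near-identical complement regulators whose probes may share signal, were low with the EP4 antagonist and high with the TGFb inhibitor (8.88 and 12.44, and 9.89 and 13.52, with the EP4 antagonist -2.07 and -2.11 from GHMT). Jam2, a junctional adhesion molecule, was low with the TGFb inhibitor alone, at 13.34 against 15.87 to 15.98 on the other arrays of set 2. Igfbp2 was high with the EP4 antagonist alone (11.63 against 9.13 to 9.20) and stood 1.28 above GHMT in set 1.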
